A study of Sus scrofa with 4 samples.

Results

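Laminins are the main adhesive glycoproteins of basement membranes, and each laminin is a trimer in which an α, a β and a γ chain are wound into a coiled coil and joined by disulfide bonds. The end of the α chain carries the globular domains that bind cell surface receptors, while the short arms of the chains link the trimer to other laminins and to nidogen. Under the epidermis and along the outer root sheath of the hair follicle, the laminin that holds α3 and β3 ties basal keratinocytes to the anchoring fibrils through integrin α6β4, and trimers of α5 with β1 or β2 and γ1 form most of the laminin network. The genes LAMA3 and LAMB3 are known for mutations that cause junctional epidermolysis bullosa, a disease of skin blistering.

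The laminin chain genes were read by gene name from a table of raw RNA sequencing counts of sorted pig epidermal cells. They were 9 of the 29837 named genes in the table, namely the 5 α chain genes LAMA1 to LAMA5, the 3 β chain genes LAMB1, LAMB2 and LAMB3, and the γ chain gene LAMC1. All 9 had counts in at least 1 library, and 8 passed a filter on low counts.

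The cells came from juvenile LGR5-H2B-GFP pigs 88R and 95R, which carry a histone H2B fused to GFP in exon 1 of a single LGR5 allele. Both sorted populations share this genotype. LGR5 is a receptor that strengthens WNT signals and marks stem cells of the hair follicle. Hair and epidermis were peeled from the dermis with Dispase II, dissociated with trypsin and sorted for live cells with bright GFP (LGR5-high, labelled GFP-hi) or without GFP (LGR5-negative, labelled GFP-neg), with 1 library of each from each pig. The reporter sits in the nucleus and is diluted as cells divide, so it reads the recent activity of the LGR5 promoter and not the transcript directly. In the paper, the reporter colocalized with LGR5 mRNA in skin, and its intensity followed LGR5 mRNA in sorted cells. The animals of the line were made by nuclear transfer from edited clonal fibroblasts or bred from such animals, and which of these pigs 88R and 95R were is not given in the sources used here.

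The 4 libraries held between 30696803 and 32463362 counts on named genes. The 2 pigs are the replicates, so an SD below is the spread between animals, while the SE of a log2 fold change comes from the edgeR fit. A count of 3, taken as the lowest measurable signal, was worth between 0.0872 and 0.105 CPM (CPM being counts divided by the library size, which was scaled by TMM, the trimmed mean of M-values in edgeR), and this floor covers counting error only. LGR5 itself had 4551 and 6224 counts in LGR5-high against 36 and 109 in LGR5-negative. The basal keratinocyte genes KRT5 and TP63 had at least 18371 counts in each library. KRT14 was not analysed here. The summed CPM of 6 suprabasal markers was 6226 and 5622 in LGR5-high (pigs 88R and 95R) against 65272 and 56348 in LGR5-negative. In bulk RNA of a sorted population, fewer cells that express a gene and less of its RNA per cell cannot be told apart.

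LGR5-high was compared with LGR5-negative by the quasi-likelihood test of edgeR on 15980 genes, and a gene was called higher or lower in LGR5-high at a Benjamini-Hochberg adjusted p-value under 0.05. Of the 8 laminin chain genes tested, 1 was higher, 2 were lower and 5 were not called, while 22.7% of all tested genes were higher and 22.0% were lower. The higher gene was LAMB2, and the lower genes were LAMA3 and LAMA2. The median log2 fold change of the 8 genes was 0.16, and that of all tested genes was 0.02. When the pig was added to the fit as a replicate block, which pairs the libraries of the same animal, 3 laminin chain genes were higher and 3 were lower, against 28.5% and 27.2% of all tested genes. LAMB3 and LAMC1 were then among the higher genes, and LAMA5 was among the lower genes.

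**Figure D1:**
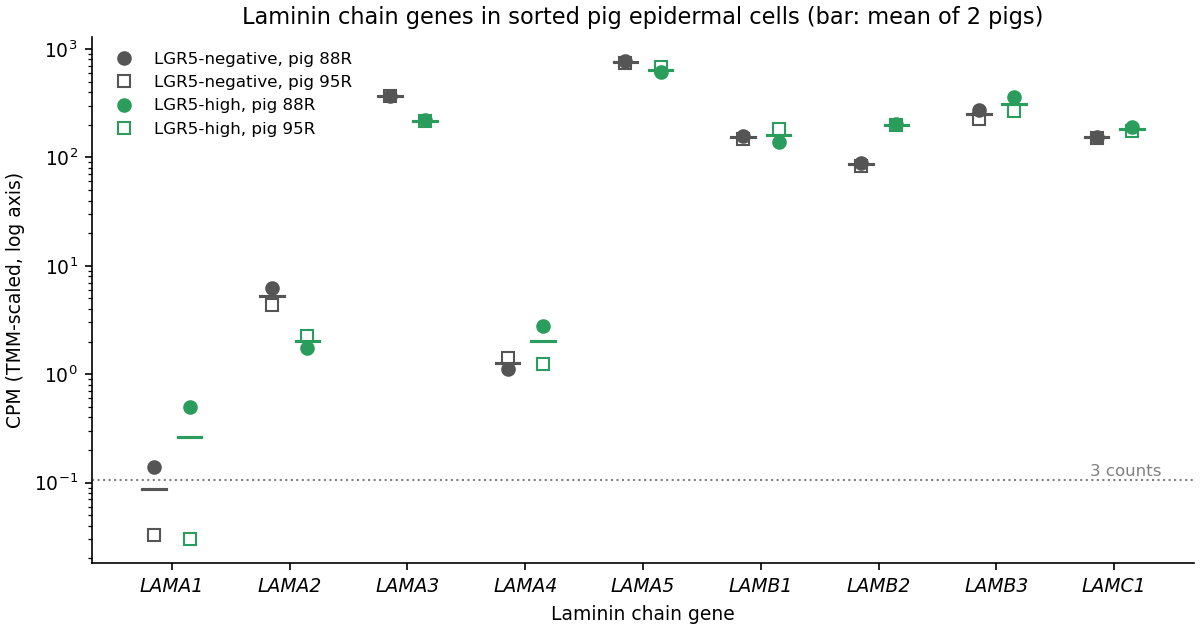
TMM-scaled CPM (log axis) of the 9 laminin chain genes in each library, with circles for pig 88R, squares for pig 95R, green for LGR5-high, grey for LGR5-negative and bars for the mean of 2 pigs. LAMB2 and LAMA3 separate the populations with close values in the pigs, LAMA2 and LAMA4 lie between 1.12 and 6.28 CPM, and LAMA1 lies at or under 0.494 CPM, near the dotted line at 3 counts.

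LAMA3, which encodes the α3 chain of the hemidesmosomal laminin, was lower in LGR5-high. It had 220 CPM (pig 88R) and 216 CPM (pig 95R) in LGR5-high, against 365 CPM in each LGR5-negative library. The populations did not overlap, and the pigs differed by a few CPM within each population. Its mean level was 218 ± 3.22 CPM (SD, n = 2 pigs), or 1.67-fold lower than the 365 ± 0.251 CPM (SD, n = 2) of LGR5-negative. The log2 fold change was -0.74 (SE 0.0743, edgeR adjusted p = 8.60e-04, where SE is the standard error). Pig 88R gave -0.73 and pig 95R gave -0.76. All 13 alternative settings called LAMA3 lower. The gene makes a short and a long α3 chain from different starts, 3 transcripts of it are annotated in RefSeq for Sscrofa11.1, and a count per gene adds them up. Cell type markers moved as well. The summed level of the 5 basal keratinocyte markers was 29065 and 30906 CPM in LGR5-high against 37091 and 33734 CPM. Of these, ITGB4, COL17A1 and DST were lower, while KRT5 and TP63 were not called. KRT5 made up most of the sum, at 23650 and 25475 CPM against 29546 and 26116 CPM. The summed level of 8 outer root sheath and bulge markers, LGR5 included, was 3055 and 4147 CPM against 903 and 1561 CPM, with 6 higher. KRT15 and NFATC1 were not called, though KRT15 was called higher with the pig as a replicate block. KRT15 had 1115 and 2344 CPM in LGR5-high, and made up most of the LGR5-negative sum at 715 and 1323 CPM. The part of these cell types in the level of LAMA3, LAMB2 and the other chains was not tested.

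LAMA5, which encodes the α5 chain, had between 21035 and 22663 counts in each library, or 612 and 680 CPM in LGR5-high against 780 and 750 CPM in LGR5-negative, in the order of pigs 88R and 95R. Both LGR5-high values lay below both LGR5-negative values. The log2 fold change of -0.24 (SE 0.0904) was not called (edgeR adjusted p = 0.0747). With the replicate block it was -0.25 and was called lower (edgeR adjusted p = 0.0295), and DESeq2 called it as well. With library size only it was -0.02, and with upper quartile scaling it was -0.15, and neither was called.

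LAMA2 and LAMA4 encode α chains known from muscle and nerve sheaths and from blood vessels and mesenchyme, and both had few counts. LAMA2 had 60 and 75 counts in LGR5-high and 179 and 131 counts in LGR5-negative in pigs 88R and 95R. The populations did not overlap, at 2.01 ± 0.371 CPM (SD, n = 2) in LGR5-high against 5.31 ± 1.38 CPM (SD, n = 2) in LGR5-negative. LAMA2 was 2.64-fold lower in LGR5-high, with a log2 fold change of -1.40 (SE 0.293, edgeR adjusted p = 0.0121). Without the LGR5-high library of pig 88R the log2 fold change was -1.23 and the call was lost (edgeR adjusted p = 0.0713). LAMA4 had 96 and 41 counts in LGR5-high and 32 and 43 counts in LGR5-negative, so that a single library stood above the other 3. Its log2 fold change came to 1.27 in pig 88R but -0.19 in pig 95R, and the estimate of 0.66 (SE 0.454) was not called (edgeR adjusted p = 0.28).

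Markers of other cell types were read as well, and they differed between the populations in both directions. The 8 endothelial markers, among them CDH5 and VWF, had a summed level of 6.63 and 7.77 CPM in LGR5-high and of 22.1 and 22.5 CPM in LGR5-negative, and 5 of the 7 tested were lower. Of the 7 fibroblast markers tested, COL1A1 and COL1A2 were higher and 5 were lower, and the summed level was 729 and 1010 CPM against 409 and 252 CPM. Of the 7 tested markers of pericytes and smooth muscle, 5 were higher and 1 was lower. The summed level was 1042 and 959 CPM against 684 and 772 CPM, with at most 2 counts of DES in a library. NOTCH3, which was lower, and CSPG4 and TAGLN, which were higher, made up most of it. Their means were 376, 279 and 333 CPM in LGR5-high and 598, 114 and 10.7 CPM in LGR5-negative. RGS5, PDGFRB, ACTA2 and MYH11 each had at most 5.51 CPM in any library. The 8 Schwann and nerve markers summed to 263 and 250 CPM against 347 and 344 CPM, with 2 of 6 tested higher, 3 lower, and CDH19 at 0 counts in every library. The melanocyte markers summed to 61.9 CPM in both LGR5-high libraries and to 82.7 and 256 CPM in LGR5-negative, and the leukocyte markers to 10.2 and 8.05 CPM against 101 and 145 CPM. The part of these cells in the values of LAMA2 and LAMA4 was not tested.

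LAMA1, the α chain gene of the early embryo, was the member that did not pass the filter. It had 17 and 1 counts in LGR5-high and 4 and 1 counts in LGR5-negative. The exact Poisson 95% interval of the 17 counts ran from 9.90 to 27.2, and that of a single count from 0.0253 to 5.57. The interval of the 4 counts ran from 1.09 to 10.2, so that LAMA1 was above the floor of 3 counts beyond counting error in the LGR5-high library of pig 88R alone. An uncharacterised gene that overlaps LAMA1 in the RefSeq annotation had 11 and 4 counts in LGR5-high and 0 in both LGR5-negative libraries.

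LAMB2, which encodes the β2 chain, was higher in LGR5-high. It had 202 CPM (pig 88R) and 197 CPM (pig 95R) in LGR5-high, and 88.6 and 83.8 CPM in LGR5-negative. The populations were far apart beside the spread between pigs, at 200 ± 3.11 CPM (SD, n = 2) and 86.2 ± 3.41 CPM (SD, n = 2). LAMB2 was 2.31-fold higher, with a log2 fold change of 1.21 (SE 0.0777, edgeR adjusted p = 2.09e-04). Pig 88R gave 1.19 and pig 95R gave 1.23. All 13 alternative settings called it higher, with log2 fold changes between 1.16 and 1.43. In the RefSeq annotation LAMB2 is also listed as a synonym of LAMC1, but the table holds a separate entry for each gene.

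LAMB1, which encodes the β1 chain that β2 replaces in many basement membranes, did not differ in the same direction in the pigs. It had 138 and 182 CPM in LGR5-high against 159 and 148 CPM in LGR5-negative, so that the populations overlapped. The log2 fold change came to -0.20 in pig 88R but 0.30 in pig 95R, and the estimate of 0.07 (SE 0.141) was not called (edgeR adjusted p = 0.728). No alternative setting called LAMB1. Leaving out the LGR5-high library of pig 95R turned its estimate to -0.14.

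LAMB3, which encodes the β3 chain that pairs with α3, had 358 and 269 CPM in LGR5-high against 272 and 228 CPM in LGR5-negative in pigs 88R and 95R. Pig 88R was above pig 95R in both populations, and the LGR5-high library of pig 95R lay below the LGR5-negative library of pig 88R. The log2 fold change of 0.33 (SE 0.161) was not called (edgeR adjusted p = 0.152). With the replicate block it was 0.32 (SE 0.0901) and LAMB3 was called higher (edgeR adjusted p = 0.00622). Pig 88R gave 0.40 and pig 95R gave 0.24.

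LAMC1, which encodes the γ1 chain shared by all trimers with β1 or β2 listed here, had 193 and 174 CPM in LGR5-high against 154 and 152 CPM in LGR5-negative. Both LGR5-high values lay above both LGR5-negative values. The log2 fold change of 0.26 (SE 0.0841) missed the threshold (edgeR adjusted p = 0.0514), and with the replicate block LAMC1 was called higher (edgeR adjusted p = 0.0224). It was also called higher with library size only, with upper quartile scaling and with a minimum of 10 counts in every library.

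**Figure D2:**
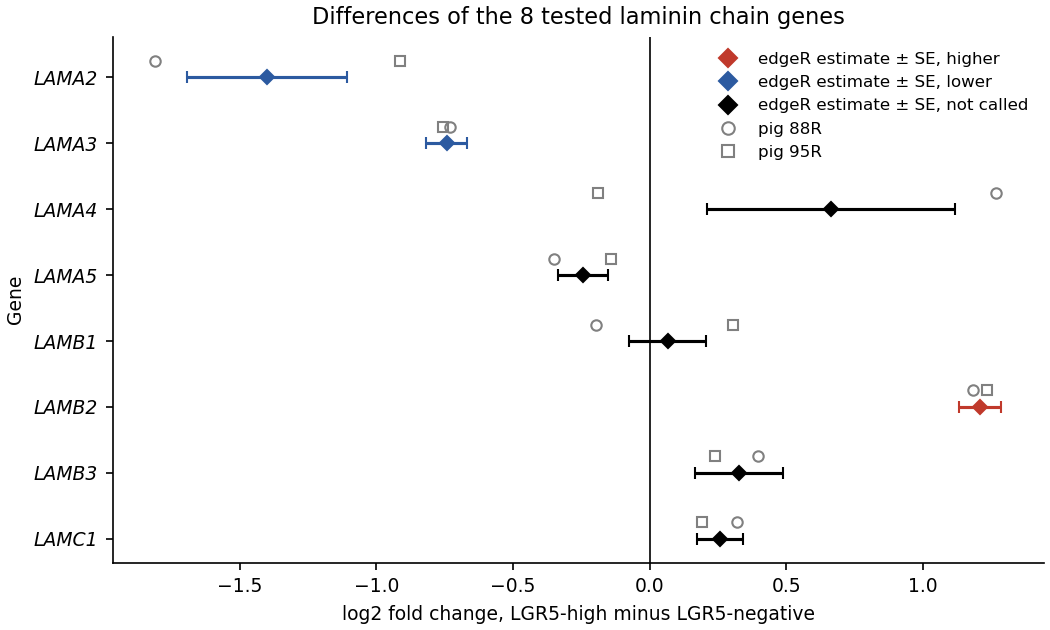
Log2 fold change (LGR5-high minus LGR5-negative) of the 8 tested laminin chain genes, with diamonds for the edgeR estimate, bars for its standard error and open symbols for each pig. LAMB2 (1.21) lies above 0 and LAMA3 (-0.74) and LAMA2 (-1.40) lie below 0 in both pigs, while the pigs lie on opposite sides of 0 for LAMA4 and LAMB1.

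The balance between chains was then read from the ratio of their counts within a library. These pairs were chosen after the values were seen. Such a ratio does not depend on the scaling between libraries, and its change between populations does not depend on the lengths of the transcripts where both populations use the same transcripts of a gene. Transcripts were not separated, so a difference in their use, such as of the short and long forms of LAMA3, was not tested. The ratio of LAMB2 to LAMB1 was 1.46 and 1.08 in LGR5-high and 0.559 and 0.568 in LGR5-negative, in the order of pigs 88R and 95R. It was higher in LGR5-high in both pigs, by a mean of 1.16 ± 0.32 on the log2 scale (SD, n = 2). The ratio of LAMB2 to LAMC1 was 1.05 and 1.13 in LGR5-high and 0.574 and 0.55 in LGR5-negative, a mean log2 change of 0.95 ± 0.124 (SD, n = 2). In both pigs LAMB2 was thus higher in LGR5-high relative to LAMB1 and to LAMC1. The ratio of LAMB1 to LAMC1 was 0.718 and 1.05 against 1.03 and 0.968, and the populations overlapped.

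The genes of the α3 and β3 chains, which join in the hemidesmosomal laminin, did not move together. The ratio of LAMA3 to LAMB3 was 0.615 and 0.803 in LGR5-high and 1.34 and 1.60 in LGR5-negative, a mean log2 change of -1.06 ± 0.0916 (SD, n = 2 pigs). In both pigs, the LAMA3 counts were thus lower beside those of LAMB3 in LGR5-high. The ratio of LAMA3 to LAMA5 was 0.36 and 0.317 in LGR5-high and 0.469 and 0.487 in LGR5-negative, so that LAMA3 was lower beside LAMA5 as well. For both ratios the populations did not overlap, but an exact permutation test of 2 libraries against 2 cannot give a two-sided p-value below 0.333, so no test was made.

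**Figure D3:**
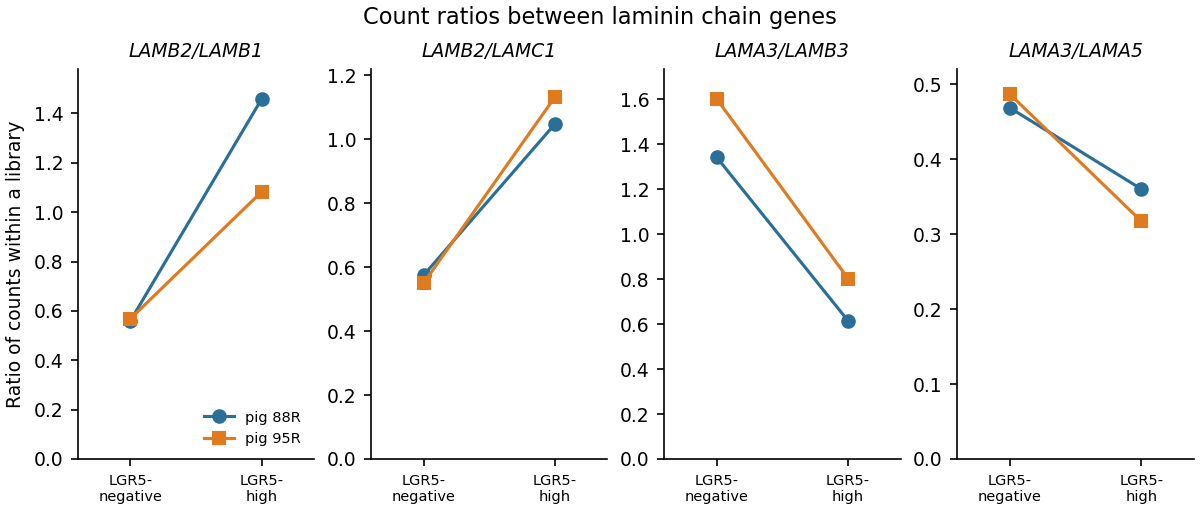
Ratio of the counts of a pair of laminin chain genes within each library (linear axes from 0), with a line for each pig from LGR5-negative to LGR5-high. LAMB2/LAMB1 and LAMB2/LAMC1 are higher and LAMA3/LAMB3 and LAMA3/LAMA5 are lower in LGR5-high in both pigs.

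Of 10 known trimers with γ1, the counts allowed 4 to be made from genes that each had at least 2527 counts in every library. These were α3β1γ1, α3β2γ1, α5β1γ1 and α5β2γ1, and their chain genes were above the floor in both populations. The hemidesmosomal laminin of α3 and β3 is not among the 10, and it was not assessed as a trimer here. For α5β2γ1 the α5 gene was not called, the β2 gene was higher and the γ1 gene was not called. For α5β1γ1 none of the 3 genes was called. For α3β2γ1 the α3 gene was lower while the β2 gene was higher. For α3β1γ1 the α3 gene was lower while the β1 and γ1 genes were not called. With the replicate block, the α5 gene was lower and the γ1 gene was higher, which changes those calls in each of the trimers that hold them. The chain genes of the trimers with α2 and α4 were also above the floor in every library, but these trimers depended on α genes with few counts. The α2 gene had between 60 and 179 counts per library and the α4 gene between 32 and 96. The trimers with α1 depended on a gene with between 1 and 17 counts. Lengths of the transcripts were not used here, so the counts of different chains were not turned into proportions of trimers, and no protein was measured.

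The laminin receptor genes were split between the populations. Of the 10 tested, 5 were higher and 4 were lower, while 22.7% of all tested genes were higher and 22% were lower. ITGA3, the α3 integrin subunit, was not called (log2 fold change -0.03, standard error 0.108). The median log2 fold change of the list was 0.16. Dystroglycan, encoded by DAG1, binds the globular domains of α chains through its sugars, and DAG1 had 9845 and 10605 counts in LGR5-high and 3528 and 3909 counts in LGR5-negative in pigs 88R and 95R. Its log2 fold change was 1.26 (SE 0.0909, edgeR adjusted p = 2.92e-04). BCAM, a receptor for the α5 chain, had 5490 and 5881 counts against 2498 and 2316 counts, with a log2 fold change of 1.04 (SE 0.104, edgeR adjusted p = 8.64e-04). CD151, a tetraspanin bound to the laminin-binding integrins, was higher by 0.82, the proteoglycan gene SDC1 by 0.43 and ITGB1 by 0.35 on the log2 scale.

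The hemidesmosomal integrin pair, in contrast, was lower. ITGA6 had 17932 and 17870 counts in LGR5-high and 25488 and 34498 counts in LGR5-negative, with a log2 fold change of -0.94 (SE 0.131). ITGB4 had a log2 fold change of -0.38 (SE 0.0882). COL17A1, which encodes the transmembrane collagen of the same junction, had -0.47, and DST, which encodes its plakin, had -0.72. ITGB4, COL17A1 and DST were the lower genes among the 5 basal keratinocyte markers read. ITGA7, known from muscle, had 69 and 100 counts against 401 and 556 counts, a log2 fold change of -2.69, and SDC4 had one of -0.82. The call of ITGB4 was lost with library size only. The calls of ITGB4 and SDC1 were lost without either LGR5-high library, with log2 fold changes between -0.45 and -0.33 and between 0.37 and 0.49 when each library was left out. The call of ITGB1 was lost without the LGR5-high library of pig 88R and without either LGR5-negative library (0.23 to 0.45).

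Of the 19 tested genes of matrix proteins that bind laminin or lie beside it, 8 were higher and 8 were lower. Among all tested genes, 22.7% were higher and 22% were lower. The median log2 fold change of the list was 0.27. NID1, which encodes the nidogen that joins laminin γ1 to collagen IV, had 4 and 1 counts in LGR5-high and 50 and 63 counts in LGR5-negative. NID1 was called lower (edgeR adjusted p = 0.00162), and its counts were low in both populations. Its LGR5-high counts lay near the floor of 3 counts, and under it in pig 95R, so the size of the fold is not well measured. The log2 fold change lay between -5.81 and -3.99 when each library was left out, and -5.81 rests on the single LGR5-high count of pig 95R. NID2 had between 12 and 24 counts in each library and was not called. HSPG2, which encodes perlecan, was higher by 0.56 on the log2 scale (SE 0.0864), and AGRN, which encodes agrin, had 0.23 and was called only with the replicate block and under 2 of the scalings. Netrin-4 binds the short arms of laminin γ chains, and its gene NTN4 had 749 and 634 counts in LGR5-high and 103 and 63 counts in LGR5-negative, a log2 fold change of 2.85 (SE 0.272, edgeR adjusted p = 7.41e-04). NPNT, which encodes the integrin ligand nephronectin of follicle basement membranes, had a log2 fold change of 2.21 (SE 0.0886), FBLN1 one of 1.64 and NTN1 one of 0.47.

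Among the collagen IV genes, COL4A1 and COL4A2 were higher by 4.36 and 4.59 on the log2 scale, while COL4A5 (-0.43) and COL4A6 (-0.33) were lower. COL4A4 had 15 and 23 counts in LGR5-high against 3 and 1 in LGR5-negative, and was at least 5.54-fold higher against a floor of 3 counts per library. The anchoring fibril gene COL7A1 (-1.08), COL18A1 (-0.72), FREM2 (-1.30) and FBLN2 (-2.81) were lower as well. FRAS1 had 3151 and 1754 counts in LGR5-high and 778 and 1564 counts in LGR5-negative. Its log2 fold change of 0.87 was not called, and pig 88R gave 1.74 while pig 95R gave 0.04. It was called only with the replicate block (0.88) and without the LGR5-negative library of pig 95R, and lay between 0.42 and 1.40 when each library was left out. Without either LGR5-high library the calls of COL4A4, COL4A5, COL4A6 and COL17A1 were lost, and 5 genes of the list were lower. COL4A4 also lost its call without the LGR5-negative library of pig 95R, and COL4A6 without that of pig 88R. COL4A3, with at most 4 counts, and FREM1, with at most 16, did not pass the filter.

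Dystroglycan binds laminin only when its mannose-linked sugar is complete, and 9 genes of that pathway were read and tested. Of these, 4 were higher, 1 was lower and 4 were not called, with a median log2 fold change of 0.46. The shares of all tested genes were 22.7% higher and 22% lower. LARGE2, which encodes an enzyme that builds the laminin-binding repeat, had 3116 and 2854 counts in LGR5-high and 1169 and 965 counts in LGR5-negative, a log2 fold change of 1.28 (SE 0.135, edgeR adjusted p = 0.00106). POMK, the kinase that acts on the core sugar, had a log2 fold change of 1.58 (SE 0.135), and B4GAT1, which primes the repeat, one of 0.98. POMT1, which adds the first mannose, was the remaining higher gene (0.46). POMGNT2 was the lower gene, with 334 and 248 counts against 737 and 636 counts and a log2 fold change of -1.44 (SE 0.186). POMT2 (0.49) was called only with the replicate block, where 5 genes were higher, and with library size only. Without either LGR5-high library the call of POMT1 was lost and 3 genes were higher.

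Proteases known to cut laminin chains or to activate plasmin made up the last list. Of its 9 genes, 7 were tested, 2 were higher and 2 were lower, with a median log2 fold change of 0.26. These counts lie near the shares of all tested genes, 22.7% higher and 22% lower. BMP1, whose product trims the α3 chain, had 2311 and 2336 counts in LGR5-high and 259 and 496 counts in LGR5-negative, a log2 fold change of 2.43 (SE 0.267, edgeR adjusted p = 0.0012). MMP2, a gelatinase, had 13316 and 10333 counts against 156 and 212 counts, a log2 fold change of 5.81. MMP14, its membrane-bound activator, had 0.14 (SE 0.0907) and was not called. The plasminogen activator gene PLAU was lower, with a log2 fold change of -2.13 (SE 0.152), and MMP9 had 5 and 1 counts against 19 and 14 counts. The call of MMP9 was lost without the LGR5-high library of pig 95R and without the LGR5-negative library of pig 88R, with log2 fold changes between -4.06 and -1.92 when each library was left out.

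**Figure D4:**
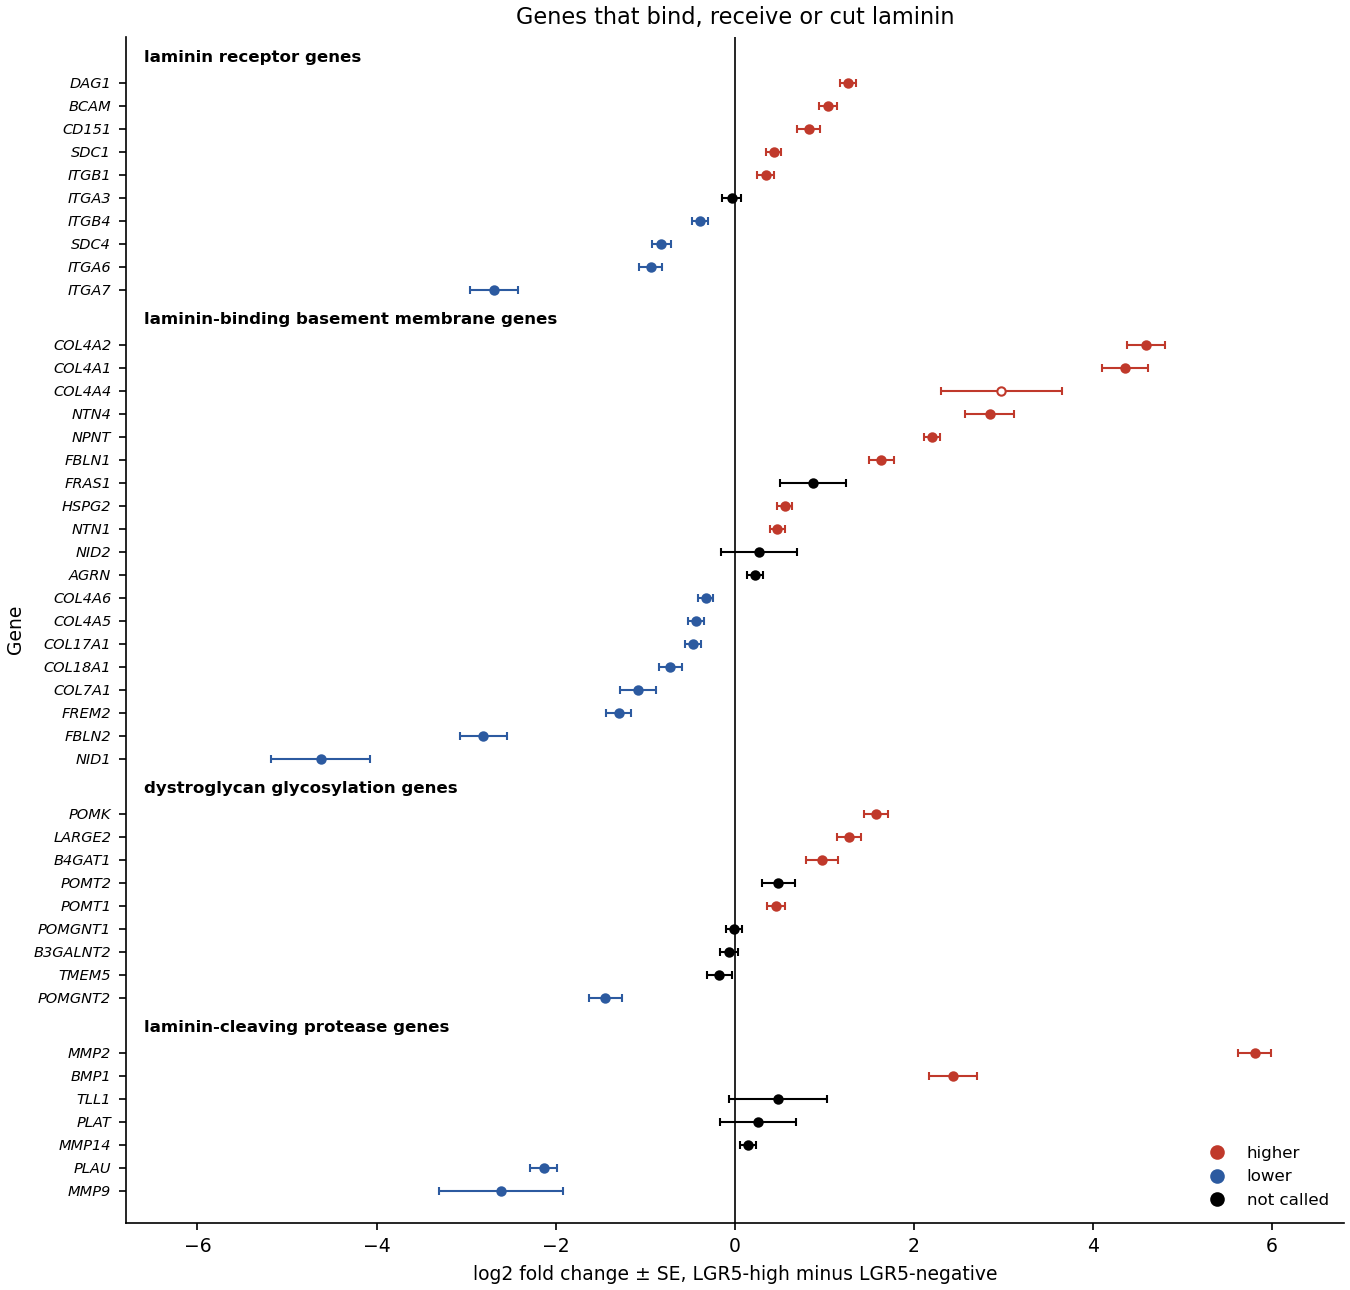
Log2 fold change with standard error (LGR5-high minus LGR5-negative, edgeR) of the tested genes of the 4 lists, in red where higher, blue where lower and black where not called. The open circle is COL4A4, with at most 3 counts in each LGR5-negative library, and within each list genes lie on both sides of 0.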

How the data were processed

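RNA was sequenced from LGR5-high and LGR5-negative epidermal cells of 2 pigs, with 1 library for each population and pig. The deposited values are raw read counts for each gene symbol, which the authors did not normalize. The processing notes of the submitters name Trimmomatic 0.36, STAR 2.5.2b and featureCounts of Subread 1.5.2, and the protocol names poly(A) selection. The genome build, annotation and strand setting are not given in the sources used here. All 29837 symbols matched RefSeq for Sscrofa11.1, which was used for names and neighbours only. An entry without a name, holding between 0.36% and 0.626% of the counts, was left out.

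The quasi-likelihood test of edgeR 4.0.16 (R 4.3.3) was run on these counts after filterByExpr (minimum count 10, minimum total 15) and TMM scaling, with a single term for the population. Its two-sided p-values were adjusted by Benjamini-Hochberg over all 15980 genes. Standard errors are the log2 fold change divided by the square root of the F statistic. Within a pig, log2 fold changes were computed with 2 as the prior count. Since both populations came from the same animals, the pig was used as a replicate block in an alternative. Across genes, libraries of the same pig deviated together (correlation 0.37). Scaling by DESeq2 size factors, by upper quartile or by library size only, 2 other filters, DESeq2 1.42.0, limma-voom (limma 3.58.1), Student's t-test, which the study's methods name, here on log2(CPM + 1), and leaving out each library were tried too. Plots were drawn with matplotlib 3.10.9.

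The members and lists were chosen with earlier results of these data known. The genes named by rule are the laminin chains and the called genes of the lists. Genes of the lists that were not called or not tested, and the pairs of chains whose ratios are given, were picked after their values were seen. RXYLT1 and LORICRIN were read under the older symbols TMEM5 and LOR. Some genes of the lists are not reported here. On simulated counts with known changes, edgeR recovered 171 of 197 changed genes among 15865 tested, with 9 false calls, and Student's t-test recovered 0 of the 197. The simulation changed a far smaller share of genes than was called here, and held no pig effect and a single dispersion. It therefore does not measure how the t-test does on these counts, where that test called 544 higher and 502 lower genes. The deposited counts are gene totals, so transcripts of a gene were not separated.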

Additional observations from a re-analysis of the deposited data

How the results depend on the processing

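The calls of LAMB2 and LAMA3 held under all 13 alternatives. LAMA2 lost its call under Student's t-test (log2 fold change -1.06) and without the LGR5-high library of pig 88R. The counts of called genes moved by over 1.5 times in the following cases, whose cause was not tested unless stated. Laminin chains higher, 1 in the reported test, were 3 with library size only, 2 with upper quartile scaling, 2 with a minimum of 10 counts per library, and 3 with the replicate block. Library size only moved the median log2 fold change of all genes from 0.02 to 0.24, and upper quartile scaling moved it to 0.11. Laminin chains lower, 2 in the reported test, were 1 with the t-test and between 1 and 2 when each library was left out. Of the laminin chain genes outside the 9, of which LAMB4 was tested, between 0 and 1 were higher and between 0 and 1 lower when each library was left out. The t-test left 0 receptor genes higher and 0 lower, 2 and 0 basement membrane genes, 0 and 0 glycosylation genes, and 1 and 0 protease genes, and called 544 higher and 502 lower genes in all, with 6391 at an unadjusted p-value under 0.05. Library size only left 5 basement membrane genes lower. Protease genes lower were 1 with that minimum, where MMP9 is not tested, and 1 with DESeq2. When each library was left out, the receptor genes higher were between 3 and 4, the basement membrane genes lower between 5 and 8 and the protease genes lower between 1 and 2. These fits have a single library in a population, which was assumed to vary like the others. The log2 fold change of LAMB4 was -0.68 and lay between -1.70 and 7.89 when each library was left out, with 7.89 and an edgeR adjusted p of 0.0161 without the LGR5-negative library of pig 88R, against 0 counts in the remaining one, so that this value is no measured fold. Of the 37 called genes of the lists, 5 kept their call under every alternative, 22 lost it only under the t-test and 10 lost it when a library was left out. Of the 17 genes not called, 6 were called with the replicate block, which changed no call from significant to not significant. Levels per transcript length, shares of chains and the lowest level among the chains of a trimer had been planned, and were not run because transcript and protein lengths were not used here. Genes with under about 10 counts, such as LAMA1, are limited by depth.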

Other observations

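Other laminin chain genes had few counts. LAMB4, the neighbour of LAMB1 in the RefSeq annotation, had 17 and 44 counts in LGR5-high and 84 and 0 counts in LGR5-negative in pigs 88R and 95R, so that the population with more counts differed between the pigs. LAMC3, which encodes the γ3 chain, had 6 and 3 counts in LGR5-high and 22 and 2 counts in LGR5-negative and did not pass the filter. LAMB4 is overlapped by a transfer RNA gene whose symbol is shared by copies elsewhere, and that symbol had between 33 and 54 counts per library. The uncharacterised genes that overlap LAMB1 and LAMB3 had between 32 and 63 and between 9 and 32 counts per library, and without the strand setting reads of overlapping genes cannot be told apart.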
